A study of Mus musculus with 4 samples.

Results

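The genes described here are 36 genes of ceramide and skin barrier lipid metabolism, read from sorted epidermal cells of mouse pups with and without induced miR-203. They were chosen by name from a list and not by their values. All 36 were represented by at least 1 single-gene probe set among the 18193 genes of the array table. A gene's value is that of its probe set with the highest mean over the 4 arrays. Each of the 36 had a mean log2 value above the filter on dim probe sets (4.17), so that all of them were tested, among 13489 genes tested in all.

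The 2 induced samples came from FVB pups labelled miR-203 inducible, which carried K14-rtTA, TRE-miR-203 and K14-H2BGFP. The 2 control samples came from littermates with TRE-miR-203 and K14-H2BGFP but no K14-rtTA, labelled WT. All were taken at postnatal day 4, 24 h after a doxycycline injection given to both groups, and the controls are called uninduced in their titles. The K14 promoter is active in basal keratinocytes and in the outer root sheath of the hair follicle, and the effects of miR-203, of the rtTA protein and of the transgene combination cannot be told apart. Cells were sorted by flow cytometry, with a gate not given in the sources used here.

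Keratinocytes of the upper epidermis make ceramides, lipids built from a sphingoid base and a fatty acid, and pack them with other lipids into lamellar granules. After secretion at the granular layer, these lipids form the sheets between cornified cells that keep water in. Skin ceramides are unusual in carrying very long, omega-hydroxylated fatty acids esterified to linoleic acid, the acylceramides, and loss of many of the enzymes concerned causes ichthyosis or death from water loss after birth.

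The induced microRNA is given by its mature sequence from RefSeq (GRCm38.p6, chr12:112130927-112130948, plus strand), because it is the product of the transgene that was driven in the induced pups. Capitals mark the seed, bases 2 to 8 of the 22, through which a microRNA pairs with its targets.
mmu-miR-203-3p: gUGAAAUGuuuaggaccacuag
The arrays analysed here carry no value for the mature microRNA. Transcript sequences of the genes described were not used here, so no seed matches in them are given.

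Samples were closely alike, with Pearson's r over the 27022 probe sets kept of 0.995 between the controls, 0.994 between the induced arrays and 0.991 to 0.993 between groups. One array stood apart by sex-linked transcripts. Eif2s3y of the Y chromosome was at a log2 value of 9.38 in induced replicate 1 and at 2.52 to 2.82 in the other 3, and Xist of the inactive X chromosome was at 5.86 there and at 10.6 to 11.2 in the others. Key values are therefore also given without that array. The basal keratins Krt5 and Krt14, the suprabasal keratins Krt1 and Krt10 and loricrin (Lor) were at 13.6 or above on every array and filaggrin (Flg) at 12.8 or above. Of the markers of other cell types, 4 of 5 endothelial genes, 4 of 8 dermal fibroblast genes and 3 of 4 measured adipocyte genes, among them Adipoq, lay below the filter. All 6 melanocyte markers, with Dct at 10.7 to 11.3, and all 7 measured immune markers, with H2-Aa at 10.7 to 11.2, lay above it. Each difference is the induced mean minus the control mean on the log2 scale, with its standard error (SE) from limma's moderated model, n = 2 and 2 throughout, and p-values are Benjamini-Hochberg adjusted over the probe sets kept.

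Read by their brightest probe sets, the ceramide and barrier lipid genes as a group had nearly the same values with and without induction, and 1 gene stood out. That gene was Sptssb, a small subunit of the enzyme that starts ceramide synthesis, whose mean was 2.28-fold higher in the induced arrays. Its control mean was low, at 5.15, where the medians of the arrays were 4.74 to 4.79. Each of the other 35 differed by less than 0.39 on the log2 scale, and 32 of the 36 by less than 0.2. A dimmer probe set of Kdsr, described below, was 1.83-fold lower in the induced arrays. The median difference was 0.00047 over the 36 genes and -0.00080 over all 13489 genes, with 18 of the 36 higher and 18 lower in mean. The median absolute difference was 0.06 for these genes and 0.10 for all genes. Their median standard deviation between replicates was also smaller, 0.08 against 0.10 for all genes.

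No gene of the 36 passed limma's threshold of 0.05 on the adjusted p, a test that called 0% of all genes, with a lowest adjusted p of 0.158. At an unadjusted p under 0.05 there were 3 of the 36 (8.33%), namely Sptssb and Sgms2 with higher and Fa2h with lower values, where 9.62% of all genes were found. Limma's trend and robust options let the expected variance depend on the mean and limit outlying variances. With them 1 of the 36 passed, Sptssb, with higher values. Of all 13489 genes 81 passed in either direction, and 0.4% with higher values. Both induced arrays lay above both controls for 6 of the 36 (16.7%; 20.1% of all genes) and below both for 4 (11.1%; 19.3% of all genes). Both shares of separated genes lie below those of all genes.

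The width of the intervals rests only in part on a gene's own 2 arrays a group. Most of it comes from the variance that limma shares over all probe sets. Dgat2, with standard deviations of 0.008 between the controls and 0.0008 between the induced arrays, still had an SE of 0.09. For 32 of the 36 genes (88.9%) limma's 95% interval of the difference lay wholly within 1.5-fold in either direction, as it did for 85.7% of all genes. The 4 genes whose interval reached further were Sptssb, Sgms2, Fa2h and Abca12. In the brightest probe sets of the other 32 a change of 1.5-fold or more lay outside the interval. This did not hold for every dimmer probe set. A dimmer Kdsr probe set had an interval from -1.14 to -0.61, wholly beyond 1.5-fold lower (0.585 on the log2 scale). A dimmer Ugcg probe set had an interval from 0.08 to 0.63, which crosses the bound. The bound of 1.5-fold was chosen after the values were seen.

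**Figure D1:**
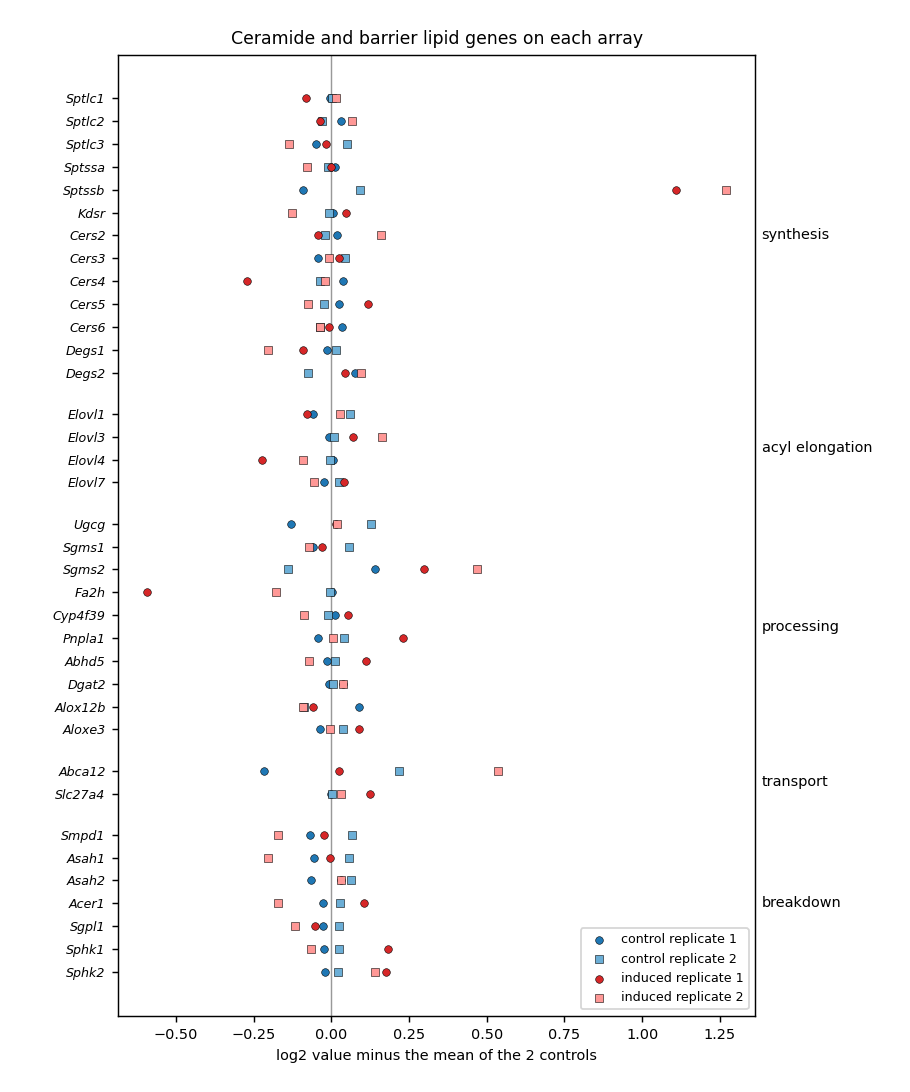
Each row is 1 of the 36 genes, grouped by step, and each point is 1 array's log2 value minus the mean of the 2 controls; blue points are controls, red points induced arrays. Sptssb is the only row in which the induced points lie beyond 1.0, and Fa2h shows induced replicate 1 far below the other arrays.

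Synthesis begins with serine palmitoyltransferase, which joins serine to a fatty acyl-CoA. Its core subunit gene Sptlc1 differed by -0.03 ± 0.10 (SE), and the catalytic subunit genes Sptlc2 and Sptlc3 by 0.02 ± 0.10 and -0.08 ± 0.10. For all 3 the groups overlapped. The enzyme is stimulated by either of a pair of small subunits, which also steer its choice of acyl-CoA, and these were measured very differently.

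Sptssb, the small subunit that favours longer acyl chains, had log2 values of 5.06 and 5.25 without induction and 6.26 and 6.43 with it. The induced arrays were both higher than both controls, by far more than the distance between replicates. The difference was 1.19 ± 0.12 (95% interval 0.90 to 1.48), with an adjusted p of 0.158 in limma and 0.02 with the trend and robust options. Of the 13489 genes tested, 12 had a larger positive difference and 3 a larger positive moderated statistic, with genes lower in the induced arrays not counted. It was 1.27 without induced replicate 1 and 1.11 without induced replicate 2, and the adjusted p ran from 0.02 to 0.739 over all the alternatives tried. A second, dimmer probe set of Sptssb read 4.59 and 4.98 without induction and 5.05 and 5.78 with it. The groups there were also apart, though by less than the distance between the induced arrays, with a difference of 0.63 ± 0.26 (adjusted p = 0.508).

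Sptssa, the other small subunit, read 13.23 and 13.20 without induction and 13.22 and 13.14 with it. The groups overlapped, with a difference of -0.04 ± 0.10 and an interval from -0.28 to 0.20 that holds no part of the interval of Sptssb. Values of Sptssa were close to the highest on these arrays (14.61), where differences can be compressed. The same limit can apply to the elongase genes Elovl1 and Elovl4 below, with control means of 13.2 and 13 in their brightest probe sets.

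The windows around the annotated starts of this pair are shown so that the sequences of the gene that stood out and of its counterpart can be compared. Both are 300 bases long, taken by gene symbol from RefSeq (GRCm38.p6), with the Sptssb window at chr3:69859845-69860144 and the Sptssa window at chr12:54656523-54656822, each on the minus strand and written 5′ to 3′. Capitals mark matches on either strand to a GC box (GGGCGG) or a CCAAT box (CCAAT), and no 2 matches overlap.
Sptssb: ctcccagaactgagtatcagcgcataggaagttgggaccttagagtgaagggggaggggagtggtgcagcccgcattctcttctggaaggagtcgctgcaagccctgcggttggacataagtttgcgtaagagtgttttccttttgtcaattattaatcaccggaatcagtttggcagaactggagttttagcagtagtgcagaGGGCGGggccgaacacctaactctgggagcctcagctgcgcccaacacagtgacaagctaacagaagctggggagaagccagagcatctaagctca
Sptssa: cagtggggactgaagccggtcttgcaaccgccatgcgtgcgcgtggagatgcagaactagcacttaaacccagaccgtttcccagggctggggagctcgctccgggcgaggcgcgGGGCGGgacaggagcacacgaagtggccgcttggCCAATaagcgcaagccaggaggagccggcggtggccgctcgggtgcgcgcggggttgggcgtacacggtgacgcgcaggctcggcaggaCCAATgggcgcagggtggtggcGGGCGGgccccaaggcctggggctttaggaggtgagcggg
The Sptssb window held 1 GC box and no CCAAT box, at 52.7% G and C. The Sptssa window held 2 of each, at 70% G and C. A GC box was found in 35.7% of the 32851 promoter windows and a CCAAT box in 37.4%. Of the 31 genes described here that had a window, 21 had a GC box and 14 a CCAAT box in any window. A gene with several windows counts once, so these counts cannot be set against the shares of windows. Neither window held a TATA box (TATAAA, in 13.6% of all windows) or an AP-1 site (TGANTCA, in 7.81%). These matches describe letters only, and no binding was measured.

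The next enzyme, 3-ketodihydrosphingosine reductase (Kdsr), differed in size by probe set. Its brightest probe set read 8.25 and 8.23 without induction and 8.29 and 8.12 with it, with overlapping groups and a difference of -0.04 ± 0.11. A dimmer one read 6.28 and 6.12 against 5.30 and 5.36. Both induced arrays were clearly lower there, 1.83-fold in mean (-0.87 ± 0.11), with an adjusted p of 0.158 in limma and 0.0419 with the trend and robust options. The third probe set of Kdsr, at -0.26 ± 0.13, also had both induced arrays below both controls. All 3 were lower in mean with induction, and the size of the difference depended on which probe set was read. Which transcripts each one detects was not tested. This gene's other probe sets were singled out after their values were seen.

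Ceramide synthases attach the fatty acid. Cers3, the synthase of the ultra-long-chain ceramides of the epidermis, read 10.31 and 10.39 without induction and 10.37 and 10.34 with it, with overlapping groups and a difference of 0.01 ± 0.10. Cers2, which uses very long chains, differed by 0.06 ± 0.11, Cers5 and Cers6, which use palmitoyl-CoA, by 0.02 ± 0.11 and -0.02 ± 0.10, and Cers4 by -0.15 ± 0.12. In Cers4 the mean rested on induced replicate 1, at 6.64 against 6.88 to 6.95 on the other arrays, and the difference was -0.02 without it. Its 2 other probe sets were at -0.22 and -0.14. All 5 synthases had overlapping groups in their brightest probe sets.

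The last step of synthesis introduces the double bond or hydroxyl group of the sphingoid base. Degs1, the dihydroceramide desaturase, read 11.79 and 11.82 without induction and 11.71 and 11.60 with it. Both induced arrays were lower, by a small amount (-0.15 ± 0.10, adjusted p = 0.697), and its second probe set differed by -0.14 ± 0.10 in the same way. Degs2, which makes phytoceramides, differed by 0.07 ± 0.10 with overlapping groups. Over the 13 synthesis genes the median difference was -0.02, with 6 higher and 7 lower in mean.

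**Figure D2:**
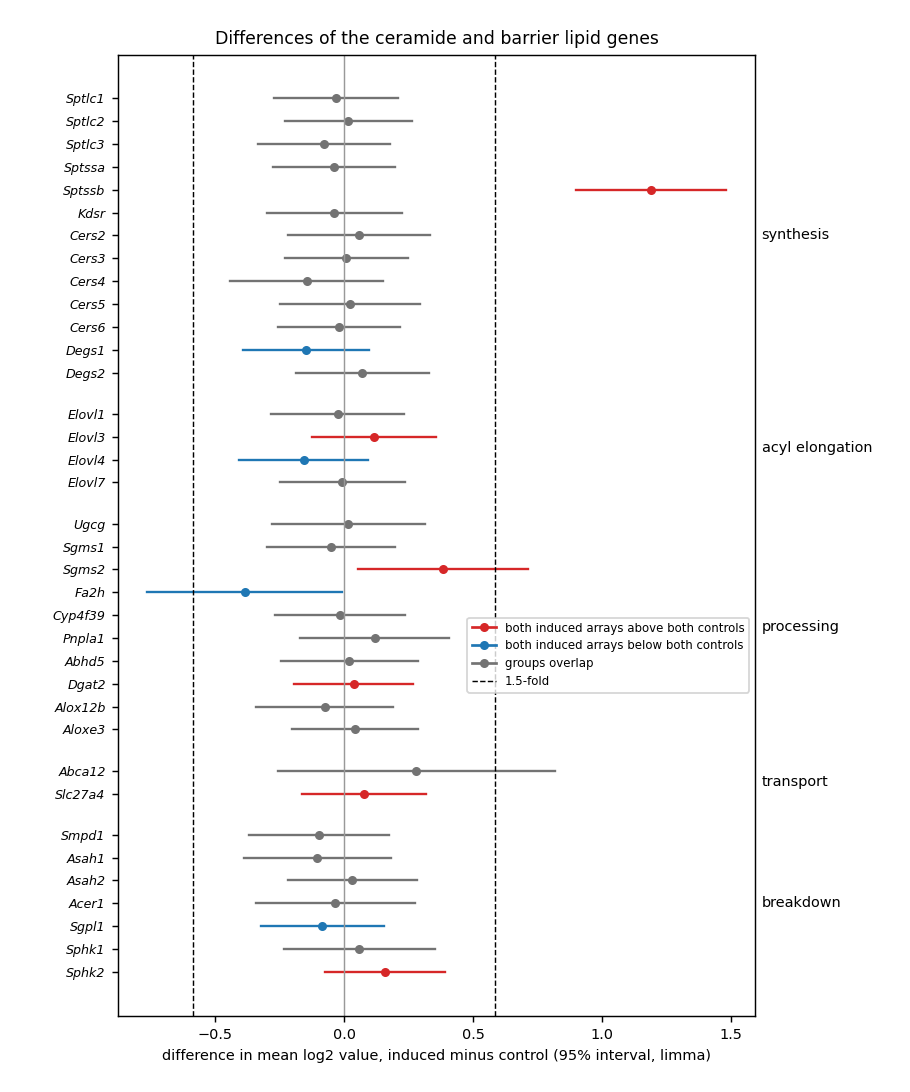
Points give the difference in mean log2 value (induced minus control) of each gene and lines its 95% interval from limma; colours show whether the 2 induced arrays lay above, below or among the 2 controls, and dashed lines mark 1.5-fold. The interval of Sptssb (0.90 to 1.48) lies wholly outside 1.5-fold, those of Sgms2, Fa2h and Abca12 cross it on 1 side, and the other 32 lie between the dashed lines.

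Elongases lengthen the fatty acids before they enter ceramide. Elovl4, the elongase of ultra-long-chain fatty acids, read 13.00 and 13.00 without induction and 12.78 and 12.91 with it. Both induced arrays were lower in each of its 2 probe sets, at -0.16 ± 0.10 in both (adjusted p = 0.682 and 0.685), and the difference was -0.09 without induced replicate 1. Elovl3, known from sebaceous glands and hair follicles, read 8.06 and 8.08 against 8.14 and 8.23. Here both induced arrays were higher, by 0.12 ± 0.10 (adjusted p = 0.771).

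The 2 other elongases had overlapping groups. Elovl1, which makes very-long-chain saturated fatty acids, differed by -0.02 ± 0.10 in its brightest probe set, a type whose probes can match more than 1 transcript, and by -0.14 to -0.03 in its other 3. Elovl7 differed by -0.01 ± 0.10, with -0.08 to 0.03 over 5 other probe sets. The median of the 4 elongases was -0.02.

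The processing genes modify ceramides or their fatty acids. Of the 10, 2 had an unadjusted p under 0.05 in limma, where 9.62% of all genes had. So small a count does not set this step apart. Sgms2, a sphingomyelin synthase of the plasma membrane, read 5.33 and 5.05 without induction and 5.49 and 5.66 with it. Both induced arrays were higher, the nearest by less than the distance between the controls. The difference was 0.38 ± 0.13 (95% interval 0.05 to 0.71, adjusted p = 0.436), and it ran from 0.24 without control replicate 2 to 0.52 without control replicate 1. Its second probe set overlapped between groups at 0.13 ± 0.21. Sgms1, the Golgi sphingomyelin synthase, differed by -0.05 ± 0.10 with overlapping groups.

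Fa2h, the enzyme that hydroxylates fatty acids at the second carbon, read 9.42 and 9.41 without induction and 8.82 and 9.24 with it. Both induced arrays were lower, and they were far apart from each other while the controls were nearly equal. The difference was -0.38 ± 0.15 (1.31-fold lower, adjusted p = 0.488). Leaving out induced replicate 1, which carried the Y-linked signal, gave -0.18, and leaving out induced replicate 2 gave -0.59.

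Markers of the sebaceous gland, where Fa2h is also known to act, moved in part with it. The desaturase gene Scd1 read 11.4 in both controls, 10.8 in induced replicate 1 and 11.1 in induced replicate 2 (-0.45 ± 0.13, adjusted p = 0.373), so that induced replicate 1 was the lowest array for it and for Fa2h. The Scd1 difference was -0.28 without induced replicate 1 and -0.25 averaged over its probe sets. Cidea had the same order of the induced arrays, both below the controls (-0.21 ± 0.12, adjusted p = 0.617). The gland receptor Mc5r was higher in both induced arrays (0.22 ± 0.10, adjusted p = 0.535). Mc5r was dim, with a control mean of 4.86 against a filter of 4.17. Of 13 sebaceous markers listed, 10 were measured and 9 tested, 5 of them lower in mean, 4 below both controls and 2 above. The sum of the 9 on the linear scale was 5893 and 5880 without induction and 4867 and 5594 with it. Most of it was Scd1 and Plin2, and its fall followed Scd1, since Plin2 was higher in both induced arrays (0.11 ± 0.10). Induced replicate 1 was not lowest for sebaceous genes alone. The same sum for the melanocyte markers was 3849 and 4029 without induction and 3441 and 5319 with it. For the tested dermal fibroblast markers it was 512 and 510 against 348 and 621. For the basal and immune markers another array was lowest. The part of the sebaceous gland in the Fa2h value was not tested, and in these bulk samples fewer cells of a type and less RNA per cell cannot be told apart.

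**Figure D3:**
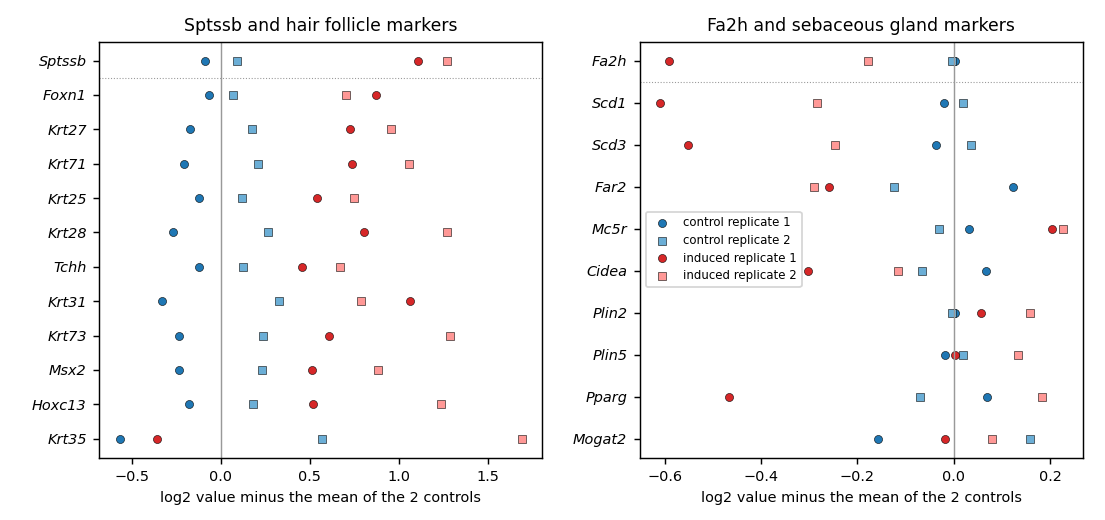
Points give each array's log2 value minus the mean of the 2 controls, for Sptssb above the 11 tested hair follicle markers (left) and for Fa2h above the 9 tested sebaceous gland markers (right); blue points are controls, red points induced arrays. On the left 10 of the 11 markers have both induced arrays above both controls, as Sptssb has. On the right Scd1, Scd3 and Cidea have induced replicate 1 lowest and induced replicate 2 next, as Fa2h has. Plin2 and the dim gene Mc5r have both induced arrays highest.

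Hair follicle genes were higher in the induced arrays, beside Sptssb. All 11 measured genes of the inner root sheath and hair shaft list had a higher mean, and for 10 of them the groups were apart. The median difference of the 11 was 0.84. Their sum on the linear scale was 17200 and 21820 without induction and 29980 and 35760 with it. Both Sptssb and this sum were highest in induced replicate 2 and lowest in control replicate 1. Not every gene of the list had that order, and Foxn1 and Krt31 were highest in induced replicate 1. The part of hair follicle cells in the Sptssb value was not tested.

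Acylceramide formation was measured through 5 genes. Cyp4f39, the omega-hydroxylase of ultra-long-chain fatty acids, differed by -0.02 ± 0.10. Pnpla1, which transfers linoleic acid onto omega-hydroxyceramide, read 9.16 and 9.25 without induction and 9.44 and 9.21 with it, so that its difference of 0.12 ± 0.12 came from induced replicate 1. Its helper Abhd5 differed by 0.02 ± 0.11. The triglyceride synthase gene Dgat2 read 10.64 and 10.66 against 10.69 and 10.69, which were both higher but only by 0.04 ± 0.09. Ugcg, the glucosylceramide synthase, differed by 0.02 ± 0.12 in its brightest probe set, while 1 of its 2 other kept probe sets had both induced arrays above both controls (0.36 ± 0.11, adjusted p = 0.385).

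The epidermal lipoxygenases Alox12b and Aloxe3, which oxidise the linoleate of acylceramides in turn, are neighbouring genes. Alox12b differed by -0.08 ± 0.11 and Aloxe3 by 0.04 ± 0.10, both with overlapping groups. Over the 10 processing genes the median was 0.02, with 6 higher and 4 lower in mean.

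Transport was represented by 2 genes. Abca12, the lipid transporter of the lamellar granules that is lost in harlequin ichthyosis, read 5.46 and 5.90 without induction and 5.70 and 6.21 with it. The groups overlapped, and the replicates of each group were further apart than the group means. The difference was 0.28 ± 0.22, with an interval from -0.26 to 0.82. It was 0.54 without induced replicate 1 and 0.02 without induced replicate 2. Slc27a4, a fatty acid transport protein with acyl-CoA synthetase activity, read 8.60 and 8.61 against 8.73 and 8.64. Its induced arrays were both higher, by 0.08 ± 0.10 (adjusted p = 0.872), and by 0.03 without induced replicate 1.

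Breakdown genes release or destroy ceramide and its products. The ceramidase genes Asah1 (acid), Asah2 (neutral) and Acer1 (alkaline, of the epidermis) differed by -0.10 ± 0.12, 0.03 ± 0.10 and -0.03 ± 0.12, all with overlapping groups. Smpd1, the acid sphingomyelinase that yields ceramide from sphingomyelin, differed by -0.10 ± 0.11 with overlapping groups.

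Sphingosine, the product of the ceramidases, is phosphorylated by a pair of kinases. Sphk2 read 8.10 and 8.14 without induction and 8.30 and 8.26 with it. These were both higher, by 0.16 ± 0.09 (adjusted p = 0.651), but its other probe set had the opposite sign at -0.09 ± 0.10. Sphk1 differed by 0.06 ± 0.12 with overlapping groups. Sgpl1, the lyase that ends the pathway, read 9.63 and 9.68 against 9.60 and 9.53, both lower by a small amount (-0.09 ± 0.10, adjusted p = 0.852).

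In all 7 breakdown genes induced replicate 1 was higher than induced replicate 2. Their median difference was -0.03 with all arrays, -0.12 without induced replicate 1 and 0.03 without induced replicate 2, so that its sign depended on the array. Over the 36 genes the median absolute distance between the induced arrays was 0.11 and between the controls 0.06. The median absolute difference between groups was 0.06. Over all genes these 3 values were 0.11, 0.12 and 0.10, so it was the controls of the 36 that were closer than usual. Induced replicate 1 was above induced replicate 2 in 22 of the 36, and in 46.4% of all genes.

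**Figure D4:**
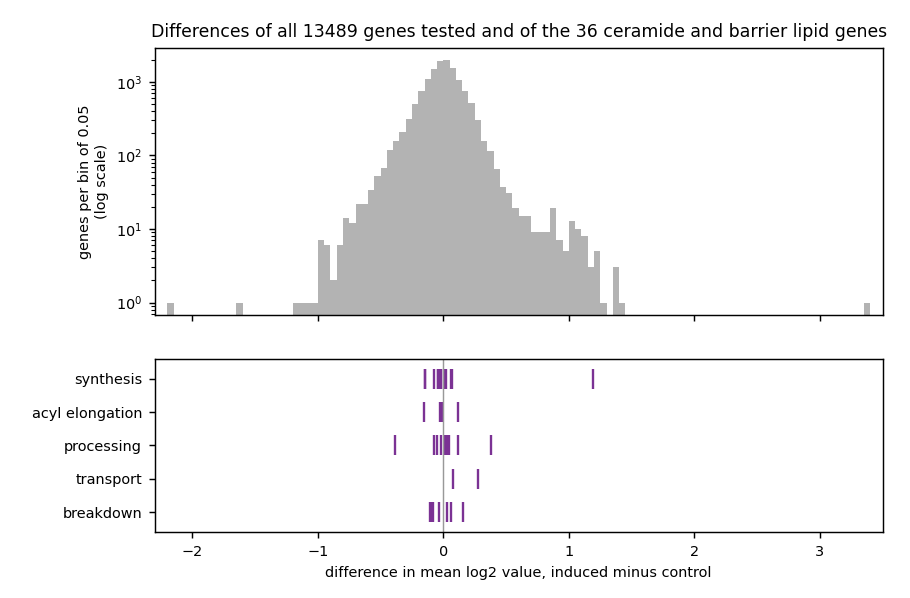
The upper panel counts all 13489 genes tested by their difference in mean log2 value (bins of 0.05, log scale on the vertical axis), and each tick in the lower panel is 1 of the 36 genes, by step. The ticks lie within the central peak, between -0.38 and 0.38, apart from Sptssb at 1.19.

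Probe sets other than the brightest were also mostly close to 0, with a balance leaning to lower values. The 36 genes had 75 single-gene probe sets, 71 of them above the filter. Among the 35 kept beside the brightest, from 21 genes, 30 differed by less than 0.2 and 7 had the opposite sign to the brightest. In 5 (14.3%) both induced arrays lay above both controls and in 9 (25.7%) below, where the shares over all 9891 such probe sets of the array were 21.3% and 17.8%. For the brightest probe sets the counts were 6 above and 4 below. The lowest was that of Kdsr at -0.87 and the highest that of Sptssb at 0.63.

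**Figure D5:**
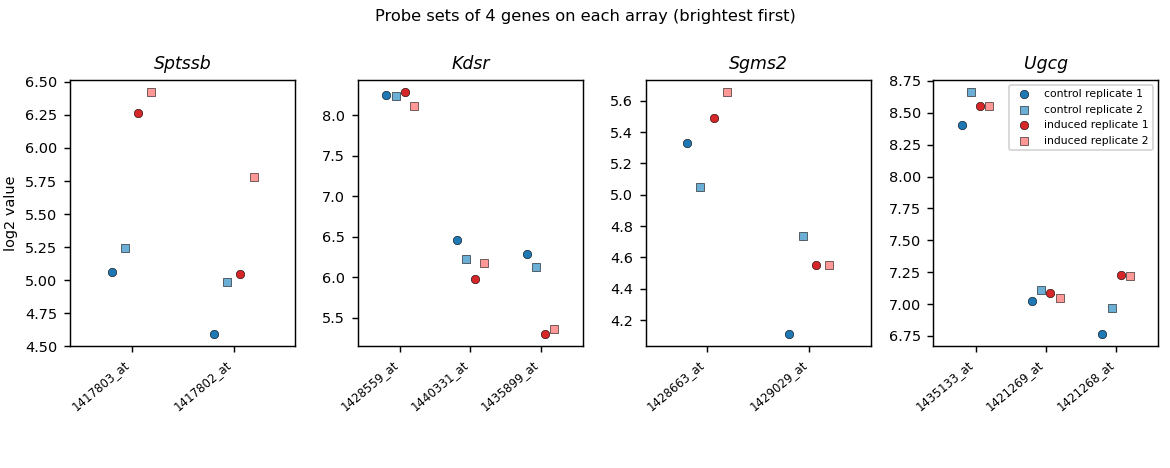
Log2 values on each array for the kept probe sets of Sptssb, Kdsr, Sgms2 and Ugcg, brightest first, with a separate vertical scale for each gene; blue points are controls, red points induced arrays. Both probe sets of Sptssb have the induced arrays higher, whereas in Kdsr the dimmest has both induced arrays about 0.87 lower and the brightest overlaps.

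Other genes of the pathway, taken from 3 lists, were also mostly alike in both groups. Of 39 other sphingolipid genes 32 were tested, with a median of 0.03, 9 above both controls and 4 below; 1 had an unadjusted p under 0.05 and 0 passed. The 4 with the largest statistic were Gla, the lysosomal alpha-galactosidase (0.44 ± 0.16), Samd8, a sphingomyelin synthase relative (0.26 ± 0.12), and the sphingomyelinase-like genes Smpdl3a (0.19 ± 0.10) and Smpdl3b (0.25 ± 0.16), with adjusted p values from 0.459 to 0.661. Averaging over probe sets gave 0.08 for Gla and 0.14 for Samd8, and Smpdl3b was at 0.06 without induced replicate 2.

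Of 28 other genes of fatty acid elongation and activation 24 were tested, with a median of 0.00, 5 above both controls and 5 below, and 4 at an unadjusted p under 0.05. Fabp4, a fatty acid binding protein, read 7.87 and 8.21 without induction and 9.24 and 9.01 with it. Both induced arrays were higher, by 1.08 ± 0.15 (2.12-fold), with an adjusted p of 0.173 in limma and 0.0251 with the trend and robust options; with the mean of its probe sets the difference was 0.68. Fads3, a desaturase of sphingoid bases, read 7.94 and 7.90 against 8.48 and 8.81, both higher, by 0.72 ± 0.13 (1.65-fold, adjusted p = 0.205). The elongase Elovl6 was lower by 0.29 ± 0.11 and the acyl-CoA synthetase Acsl3 higher by 0.29 ± 0.12, with adjusted p values of 0.474 and 0.489. Averaged over probe sets they were at -0.13 and 0.17.

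Of 32 other barrier lipid genes 28 were tested, with a median of 0.05, 9 above both controls and 3 below, and 1 at an unadjusted p under 0.05. The 4 with the largest statistic were the lipid exporter gene Abca1 (0.29 ± 0.10), the triglyceride lipase gene Pnpla2 (0.21 ± 0.11), the epoxide hydrolase gene Ephx3 (0.19 ± 0.10) and the ichthyosis gene Nipal4 (0.21 ± 0.11). Each had both induced arrays above both controls, with adjusted p values from 0.451 to 0.619. Averaging over probe sets gave 0.09 for Abca1 and 0.07 for Nipal4.

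Granular layer markers, which mark the cells that secrete barrier lipids, had a median difference of 0.02 over the 10 tested, with 2 above both controls and 3 below. Their sum on the linear scale was 71240 and 72920 without induction and 73110 and 71030 with it. Lor differed by 0.00 ± 0.09 and Flg by -0.10 ± 0.10. Lor was at 14.2 on every array, near the highest value (14.61), where differences can be compressed. The linear sum is weighted to such bright genes. The largest difference of the list was that of the cornified envelope gene Rptn, at 0.47 ± 0.10 (95% interval 0.21 to 0.72), with both induced arrays higher and an adjusted p of 0.268 in limma and 0.0686 with the trend and robust options.

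Basal keratinocyte markers were lower in the induced arrays, with a median difference of -0.17. Of 7 tested, 6 had both induced arrays below both controls and 3 had an unadjusted p under 0.05, and their sum on the linear scale was 42530 and 42810 without induction and 37990 and 36750 with it. The hemidesmosome collagen gene Col17a1 read 9.95 and 10.01 against 9.37 and 9.18, a difference of -0.71 ± 0.11 (adjusted p = 0.188 in limma, 0.0305 with the trend and robust options). Krt15 differed by -0.33 ± 0.10, the basal transcription factor gene Trp63 by -0.30 ± 0.09, Krt5 by -0.17 ± 0.09 and Krt14 by -0.13 ± 0.09. Rptn, Col17a1, Krt15 and Trp63 were named after their values were seen, and the part of basal cells in the values of the lipid genes was not tested.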

How the data were processed

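Total RNA of sorted skin cells was biotin labelled and hybridised to 1 Affymetrix array per sample, per the labels' protocols. The deposited table holds log2 values; per the submitters' processing notes the authors used RMA (background correction, quantile normalization, probe set summary), so that a change in the amount of RNA in each cell is not visible. Genes were named from the platform annotation with 1 gene per probe set (34945 of 45037; 932 had several, 9160 were not listed) and current RefSeq symbols (34741 matched). The 64 control probe sets were left out. The 27022 probe sets whose mean reached the 40th percentile were tested with limma 3.58.1 in R 4.3.3 (lmFit, eBayes, two-sided, 2 residual degrees of freedom); the code was tested on simulated data. The precision is limited by 2 arrays a group. The labels call the replicates biological, without naming animals.

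The 36 genes, the steps, the lists and the tests were chosen with earlier results of these data known. All 36 genes are named; values on each array are given for those whose groups did not overlap or that had an unadjusted p under 0.05, and for some others chosen after their values were seen. Of the other pathway genes, the 4 with the largest absolute statistic per list are named, with a few keratinocyte, sebaceous and sex-linked genes as context. Replicate numbers are shared by the groups, but their deviations had a correlation of -0.10, so no block was used. Alternatives were other filters, a second quantile normalization, centring, the trend and robust options, averaging over a gene's probe sets, the replicate block and leaving out each array.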

Additional observations from a re-analysis of the deposited data

Results flagged for a closer look

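Eif2s3y, a gene of the Y chromosome that no comparison of the lipid genes uses, had a log2 value of 9.38 in induced replicate 1, above its level in both controls (2.82 and 2.52). Kdm5d read 7.14 there against 2.47 and 2.65, and Uty 5.59 against 3.59 and 3.47.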

How the results depend on the processing

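With limma's trend and robust options, 126 probe sets and 81 genes passed in place of 0, and 1 of the 36 genes, Sptssb, in place of 0. The synthesis median was -0.037 after a second quantile normalization and -0.039 when probe sets were averaged per gene, against -0.021, and 7 of the 36 genes lay below both controls after averaging, against 4. Leaving out 1 array in turn gave 0 to 6 probe sets and 0 to 2 genes past the threshold (6 and 2 without induced replicate 2) and none of the 36. With a lone array for a group, which is then assumed to vary like the other group, 7 to 15 of the 36 genes lay above the controls and 8 to 18 below. Without single arrays the median over the 36 genes ran from -0.028 to 0.023, for synthesis from -0.027 to -0.0061, for processing from -0.038 to 0.045 and for breakdown from -0.12 to 0.033, and of these only the synthesis median kept its sign.

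The fit with a replicate block left 0 probe sets and 0 of the 36 genes past the threshold (Sptssb at an adjusted p of 0.395), as did a crossed replicate block, chosen after seeing the data because the correlation of deviations was just under -0.1. The pairing changed no call. Under the alternatives, 687 values of single named genes kept direction without newly passing the threshold, or reversed by less than the replicate spread. Values that kept their direction are counted there whatever the size of the move. Kdsr went from -0.04 to -0.39 when its probe sets were averaged and is among them. The filters, the trend and robust options and the replicate blocks cannot change the difference itself. Sptssb and Fabp4 newly passed with the trend and robust options. Eif2s3y and Xist were counted as stronger only without induced replicate 2, where a lone induced array stands for its group. In 2 values the direction changed by more than the spread (Lor after centring, Sptlc2 after averaging). Of the 36 genes, 17 kept their sign without any single array. With 2 arrays a group and 2 residual degrees of freedom, the tests draw most of their precision from the variance shared over all probe sets.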

Other observations

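Regulators of lipid genes, a list of 16 chosen after the other results were seen, included 13 genes above the filter. Their median difference was 0.07, with 10 higher and 3 lower in mean, 4 above both controls and 1 below. Ppara, a fatty acid sensing nuclear receptor, read 5.51 and 5.43 without induction and 4.93 and 5.23 with it, a difference of -0.39 ± 0.13 (adjusted p = 0.414 in limma). Its relatives Ppard and Pparg, and Srebf1 and Srebf2 of fatty acid and sterol synthesis, had overlapping groups, at 0.12 ± 0.12, -0.14 ± 0.22, 0.07 ± 0.12 and 0.00 ± 0.11. The coactivator gene Ppargc1b (0.23 ± 0.11) and the vitamin D receptor gene Vdr (0.21 ± 0.13) had both induced arrays above both controls, with adjusted p values of 0.548 and 0.676.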
